A study of Mus musculus with 96 samples.

Results

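The mitochondrial ribosomal protein genes are the nuclear genes whose products, after import into mitochondria, build the ribosome of that organelle. They were taken here as every gene of the count table with a symbol that begins with Mrpl or Mrps followed by a number, without symbols ending in -ps, which name pseudogenes. This gave 78 of 49466 genes, 49 with an Mrpl symbol and 29 with an Mrps symbol, and 77 of them reached 10 CPM (the reads of a gene per 1000000 reads in genes) in at least 1 group. The members were followed through single erythroid progenitors of mouse fetal liver (strain C57/Bl6J, embryonic day 14.5), with 1 sorted cell in each of the 96 wells of 1 plate and libraries made by Smart-seq2, which reads full-length cDNA. Before sorting, cells bearing lineage markers had been removed, and the rest were sorted with antibodies to Kit, CD71 and CD24 into 4 gates. BFUE (burst-forming units) are the earliest committed progenitors, CFUE (colony-forming units) the later ones, and the gates Intermediate_25-35 and Intermediate_50-60 were named for their percentage of CD71/CD24 expression between them.

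The BFUE gate was further split by Cd34, a surface protein of early blood progenitors, at 100 CPM, because its wells fell into separate ranges of 1040 to 2200 CPM and of 5.16 CPM or less. Wells of the other gates held at most 3.91 CPM of Cd34. With 50000 reads or more per well, 91 wells were kept: 8 Cd34-high BFUE, 15 Cd34-low BFUE, 21 Intermediate_25-35, 24 Intermediate_50-60 and 23 CFUE wells. They held 947458 to 3785903 reads in genes each, with a median of 9363 genes. All groups share the strain, age and lineage depletion. Each gate filled 3 plate columns, so gate and plate column cannot be told apart. No animal is named in the labels. Each gate is therefore 1 sample, no difference between groups has a replicate check, and no test was made. Values are CPM of reads summed over the wells of a group unless a well is named. Intervals are exact 95% intervals that cover counting error only, since reads without molecular identifiers are not independent molecules, and the spread over wells is given beside them.

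Mitochondrial DNA of the mouse encodes a small set of proteins, all of them parts of the respiratory chain and ATP synthase. They are made on a ribosome of its own kind, with a large subunit that joins amino acids and a small subunit that reads the messenger RNA. Its ribosomal RNAs come from mitochondrial DNA, whereas every protein in it is encoded in the nucleus. Some of these proteins have relatives in bacterial ribosomes and others are found only in mitochondria. Erythroid progenitors need mitochondria for heme, which is begun and finished in that organelle.

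Sorted by the place of their products, 51 members belong to the large subunit and 26 to the small one. Among the large subunit members are Mrps18a and Mrps30, whose symbols carry the name of the small subunit but whose proteins sit in the large one. The remaining member, Mrps36, was named as a ribosomal protein and was later assigned to the 2-oxoglutarate dehydrogenase complex of the citric acid cycle, so its product is taken as part of neither subunit. In all 91 kept wells, 58 members had a read. Mrpl53 stood apart as the one member near 0, at 0.501 CPM in Cd34-high BFUE and 0.191 CPM in Cd34-low BFUE, and it is left out of every count of measured members. In the annotation, 88.0% of its exon bases also belong to other genes on its strand (Ccdc142os and Gm42688), so reads of this gene could have been lost in counting.

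Levels of different genes can be set side by side per kb of annotated exon only. Over all kept wells the highest members per kb were Mrpl12 at 239 CPM per kb, Mrpl34 at 216, Mrpl18 at 207, Mrpl28 at 191 and Mrpl36 at 180, all of the large subunit. The lowest, apart from Mrpl53, were Mrpl33 at 9.61 CPM per kb, Mrpl48 at 9.94, Mrpl23 at 12.6, Mrps31 at 13.01 and Mrps10 at 13.2. Exon length here joins all annotated transcripts of a gene (8152 bases for Mrpl48), so a gene with long rare transcripts is placed too low. Mrpl12 encodes the protein of the ribosomal stalk, which draws in translation factors, and it took 3.66% of all reads of the members.

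From Cd34-low BFUE onward the family as a whole stayed near 1% of reads. It took 0.700% of reads in Cd34-high BFUE, 0.966% in Cd34-low BFUE, 1.04% in Intermediate_25-35, 1.03% in Intermediate_50-60 and 1.06% in CFUE. Per well, the summed level ran between 6282 and 7846 CPM in Cd34-high BFUE, with a median of 6940. It ran between 7402 and 10699 CPM in Cd34-low BFUE, with a median of 9916. The lowest, median and highest wells were at 9096, 10322 and 11965 CPM in Intermediate_25-35, at 8668, 10127 and 11655 CPM in Intermediate_50-60, and at 7962, 10416 and 18926 CPM in CFUE. The 4 groups after Cd34-high BFUE therefore overlapped broadly, and the Cd34-high wells lay at their lower edge or below.

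**Figure D1:**
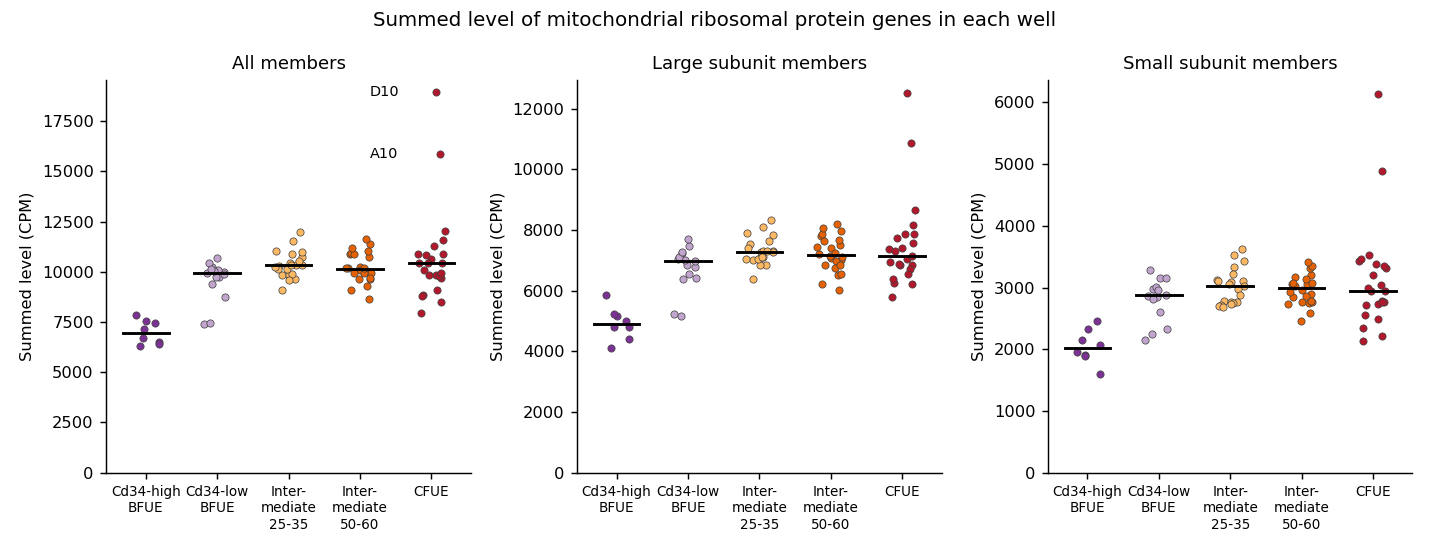
Summed level of the mitochondrial ribosomal protein genes (left), of the large subunit members (middle) and of the small subunit members (right) in each kept well, in CPM on a linear axis from 0. Each point is 1 well, bars are group medians, and the 8 Cd34-high wells lie between 6282 and 7846 CPM, while the CFUE wells A10 and D10 stand above all others.

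A pair of CFUE wells stood apart. Well D10 held 18926 CPM of the members and well A10 held 15875 CPM, whereas no other CFUE well exceeded 12050 CPM. Their libraries were unlike the rest in other ways too. D10 had 947458 reads and 6361 genes, A10 had 1403173 reads and 7422 genes, and the median of CFUE wells was 9282 genes. Cytosolic ribosomal protein genes were taken by symbol: Rpl or Rps followed by a number, or Rplp, without -ps. Such a rule can also take in genes of other proteins. The set took 194008 CPM in D10 and 113865 CPM in A10, against a CFUE median of 64472 CPM. The 13 protein genes of mitochondrial DNA took 38733 and 28897 CPM there, against a CFUE median of 10612 CPM. Only 66 members had a read in D10, where Gata1, the erythroid transcription factor, was at 3.17 CPM. Values with and without these wells are given for the results of CFUE that they move most, and the part that library quality has in them was not tested. Without A10 and D10, the remaining 21 CFUE wells ran between 7962 and 12050 CPM with a median of 10072.

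The ends of the erythroid series were compared first, with CFUE set against Cd34-low BFUE. The summed level in CFUE was 1.09 times that in Cd34-low BFUE, and 1.05 times without wells A10 and D10. Of 77 measured members, 3 were at least 1.5-fold higher in CFUE, beside 13.6% of all 8246 genes measured at 10 CPM or more in either group. None was at least 1.5-fold lower, beside 24.9% of those genes. Of the members, 70.1% stayed within 1.3-fold of equal, against 45.0% of all genes, and at 50 CPM or more 69.9% of members did so, against 53.4% of all genes. The median log2 ratio was 0.14 over the members and -0.11 over all genes. Scaling by TMM factors moved every log2 ratio of this comparison up by 0.11, which put the medians at 0.24 over the members and 0.00 over all genes and 9 members past 1.5-fold, beside 17.3% of all genes. Wells A10 and D10 carried part of this: without them the same 3 members passed 1.5-fold, beside 13.2% of all genes, and the median was 0.10. The upper plate rows (A to D), which hold wells A10 and D10, gave a summed ratio of 1.20 and the lower ones (E to H) one of 0.998. The small difference of the family between these groups was thus not seen in both parts of the plate. This split by rows is not a check apart from those wells. Against all 23 kept BFUE wells, Cd34-high ones included, the ratio was 1.20 and 10 members were at least 1.5-fold higher, beside 13.7% of all genes.

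Both subunits kept the same place. The large subunit members had a median log2 ratio of 0.14 for CFUE over Cd34-low BFUE (50 measured) and the small subunit members one of 0.13 (26 measured). Their summed ratios were 1.09 and 1.08. Without wells A10 and D10 both medians were 0.09 and the summed ratios 1.05 and 1.025. Within the small subunit, the 16 members classed as having bacterial relatives summed to 1.16 times their level in Cd34-low BFUE. The 10 classed as found only in mitochondria, Mrps18b among them, summed to 0.946 times theirs (1.08 and 0.930 without A10 and D10). Within the large subunit the corresponding ratios were 1.09 over 30 members and 1.10 over the other 20 measured. No test stands behind the difference between these classes.

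The members that were higher in CFUE by 1.5-fold were Mrps36, Mrps18c and Mrpl49. Mrps18c encodes the small subunit protein related to bacterial S18, and it is one of a set of 3 related genes with Mrps18a and Mrps18b. In CFUE its wells ran between 43.3 and 776 CPM with a median of 96.1, against 34.7 to 85.6 CPM with a median of 52.7 in Cd34-low BFUE. The 2 highest CFUE wells were D10 at 776 and A10 at 346 CPM. In 15 of 23 CFUE wells it lay above every Cd34-low BFUE well, and 21 of 23 lay above the median of those wells. Summed, Mrps18c was 2.23-fold higher in CFUE (interval 2.11 to 2.37) and 1.74-fold higher without A10 and D10 (interval 1.64 to 1.85). The ratio was 2.56 in the upper plate rows, which hold A10 and D10, and 1.93 in the lower ones.

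The gates between them filled the gap. Mrps18c stood at 42.0 CPM in Cd34-high BFUE, 56.4 in Cd34-low BFUE, 64.3 in Intermediate_25-35, 83.2 in Intermediate_50-60 and 126 in CFUE, or 98.1 in CFUE without A10 and D10. Its relatives did not follow this order. Mrps18a, the large subunit member of the set, stood at 87.1, 124, 109, 113 and 109 CPM in the same groups. Mrps18b, a small subunit member classed here as found only in mitochondria though related to Mrps18c, stood at 40.9, 101, 105, 107 and 106 CPM. From Cd34-low BFUE onward, then, Mrps18c differed between stages by more than either relative, and Mrps18b had the lowest ratio of highest to lowest level over those 4 groups among all members (1.06). Of the exon bases of Mrps18c (chromosome 5, 100798627 to 100804471, GRCm38), 23.2% also belong to Gm43511 on the same strand, and the counting rule for shared reads is not given in the sources used here.

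**Figure D2:**
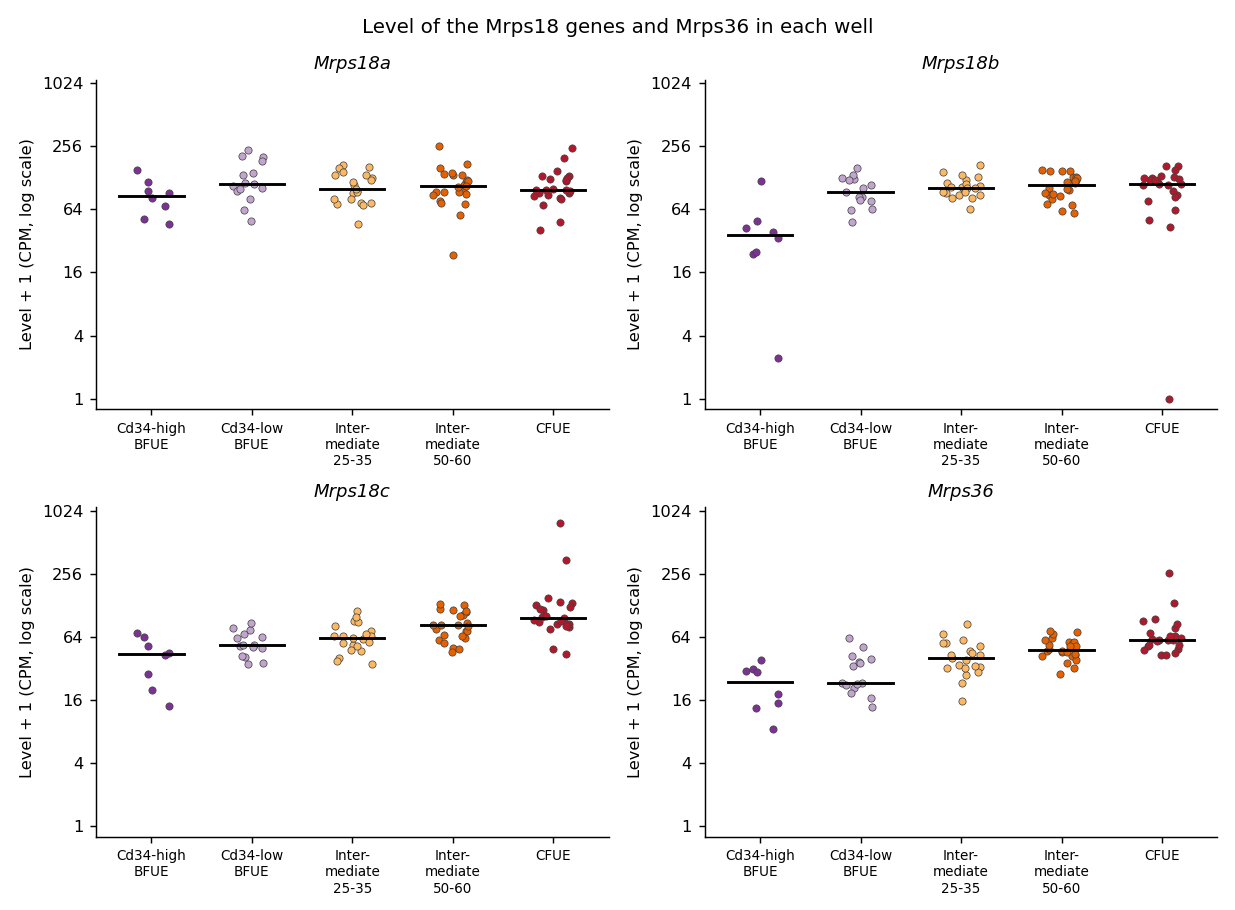
Level of Mrps18a, Mrps18b, Mrps18c and Mrps36 in each kept well, as CPM plus 1 on a log scale, by group from Cd34-high BFUE to CFUE. Each point is 1 well and bars are group medians; the medians of Mrps18c and Mrps36 are higher in CFUE (96.1 and 59.3 CPM) than in Cd34-low BFUE (52.7 and 22.5 CPM), and the highest points of both genes are CFUE wells A10 and D10.

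Mrps36 (chromosome 13, 100735955 to 100744659) showed the same order. Its wells in CFUE ran between 41.8 and 259 CPM with a median of 59.3, against 12.8 to 62.0 CPM with a median of 22.5 in Cd34-low BFUE. All 23 CFUE wells lay above the median of Cd34-low BFUE, and 10 lay above every well of it. By group it stood at 22.3 CPM in Cd34-high BFUE, 30.2 in Cd34-low BFUE, 41.9 in Intermediate_25-35, 49.5 in Intermediate_50-60 and 69.2 in CFUE. Summed, it was 2.29-fold higher in CFUE than in Cd34-low BFUE (interval 2.11 to 2.48), and 2.02-fold higher without A10 and D10. Its ratio was 2.56 in the upper plate rows, which hold A10 and D10, and 2.05 in the lower ones. Copies of Mrps36 in the genome take few reads of their own: Mrps36-ps1 had 387 reads and Mrps36-ps2 had 73, against 6618 of Mrps36 itself over all kept wells. How reads that match both a gene and its copy were counted is not given. The largest share among such copies was that of Mrpl23-ps1, with 1450 reads or 16.7% of those of Mrpl23.

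Mrpl49, a large subunit protein found only in mitochondria, varied more from well to well. It ran between 41.4 and 334 CPM with a median of 154 in CFUE wells, against 24.6 to 216 CPM with a median of 117 in Cd34-low BFUE wells. The groups overlapped widely, with 18 of 23 CFUE wells above the Cd34-low median. Summed, it was 1.63-fold higher in CFUE (interval 1.56 to 1.71), 1.64-fold without A10 and D10, and 1.41-fold in the lower plate rows alone. Next below the threshold stood Mrpl33 (1.48), Mrps14 (1.45), Mrpl41 (1.42), Mrpl30 (1.42) and Mrps28 (1.40), of which Mrpl33 came to 1.21 and Mrps14 to 1.17 without A10 and D10.

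**Figure D3:**
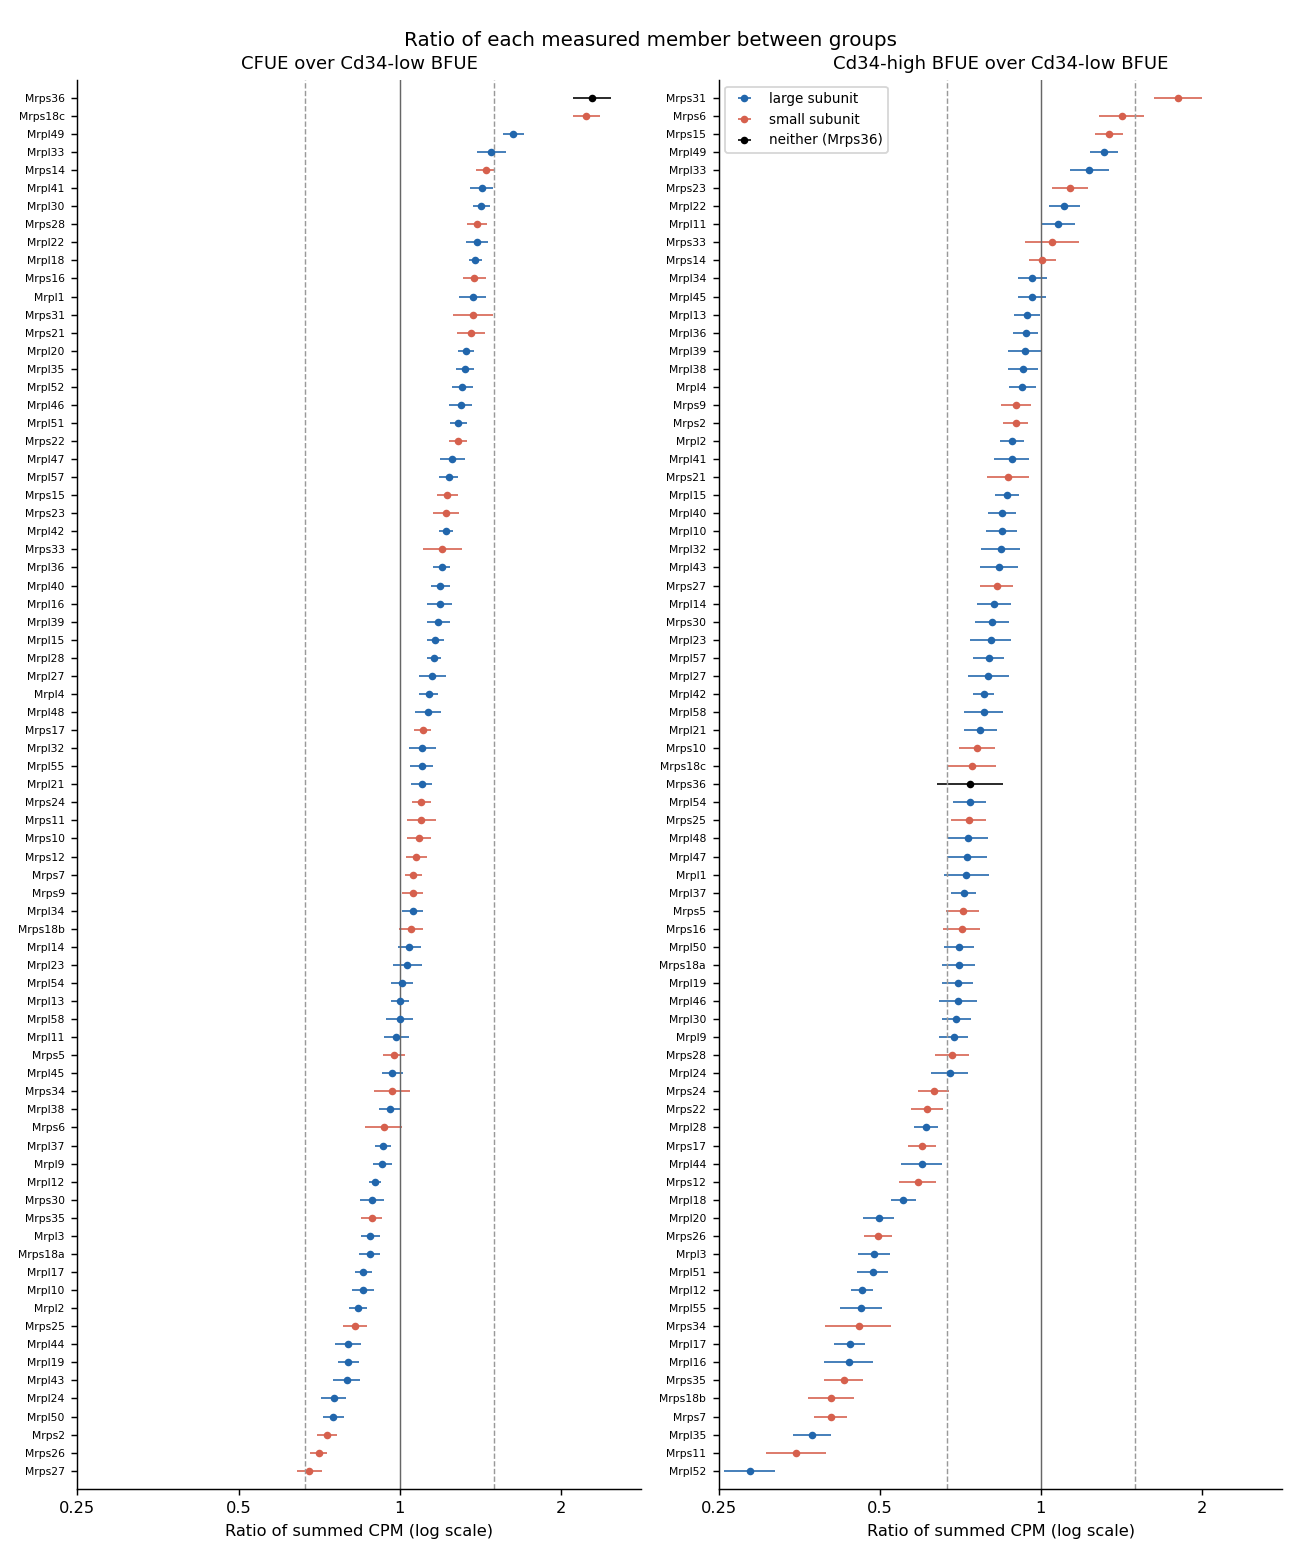
Ratio of summed CPM for each of the 77 measured members, CFUE over Cd34-low BFUE (left) and Cd34-high BFUE over Cd34-low BFUE (right), on log axes, sorted by ratio within each panel. Points are coloured by subunit, horizontal bars are 95% intervals of counting error, dashed lines mark 1.5-fold either way, and the left panel spans 0.677 to 2.29 while the right one spans 0.286 to 1.80.

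At the other end of the ranking were members of the small subunit. Mrps27, an RNA-binding protein of the small subunit, ran between 0 and 268 CPM with a median of 58.7 in CFUE wells, against 42.0 to 235 CPM with a median of 74.4 in Cd34-low BFUE wells. Without A10 and D10 the CFUE wells still ran between 0 and 268 CPM, with a median of 65.4. Summed with these wells included, Mrps27 was 1.48-fold lower in CFUE (interval 1.40 to 1.56). Its ratios were 0.829 in the upper plate rows and 0.541 in the lower ones. Mrps26 ran between 2.14 and 305 CPM with a median of 154 in CFUE wells, against 136 to 327 CPM with a median of 200 in Cd34-low BFUE wells, and 8 of 23 CFUE wells lay below every Cd34-low well. Its lowest CFUE well was A10, and without A10 and D10 the lowest was at 59.0 CPM with the median still 154. With these wells included, Mrps26 was 1.42-fold lower, and Mrps2, the relative of bacterial S2, was 1.37-fold lower. Mrpl50, Mrpl24, Mrpl43, Mrpl19 and Mrpl44 of the large subunit had ratios of 0.751, 0.753, 0.797, 0.801 and 0.802. None of these passed 1.5-fold, and the wells of each overlapped between the groups.

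Neighbouring gates differed little in the family. In Intermediate_25-35 the summed level was 1.07 times that of Cd34-low BFUE, and no member was past 1.5-fold in either direction, beside 9.54% of all genes that were higher and 17.7% that were lower. Mrpl36, Mrps36 and Mrps23 had the highest ratios that held in both parts of the plate (1.43, 1.39 and 1.39), and Mrpl44, Mrpl24 and Mrpl14 the lowest (0.745, 0.760 and 0.779). In Intermediate_50-60 the summed level was 0.991 times that of Intermediate_25-35, again with no member past 1.5-fold, beside 7.34% of all genes that were higher and 9.27% that were lower. Of the members, 97.4% stayed within 1.3-fold of equal in that step, against 69.3% of all genes. Mrps18c (1.29), Mrpl43 (1.22) and Mrpl9 (1.20) were at the top, and Mrps27 (0.685), Mrpl50 (0.742) and Mrpl19 (0.839) at the bottom.

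CFUE over Intermediate_50-60 gave a summed ratio of 1.03, or 0.983 without A10 and D10. Mrps18c was the 1 member at least 1.5-fold higher (1.52), beside 7.98% of all genes, and none was lower, beside 9.70%. Without A10 and D10, Mrps18c came to 1.18 and no member passed, beside 7.41% of all genes. With these wells included, Mrps36 (1.40) and Mrpl23 (1.28) came next after Mrps18c, and Mrpl43 (0.740), Mrpl19 (0.762) and Mrps5 (0.778) had the lowest ratios. Over the 4 groups from Cd34-low BFUE to CFUE, the level of 15 of 77 members was higher at each step (22 with TMM or size factors). That of 2, Mrps2 and Mrps26, was lower at each step. This order was taken with wells A10 and D10 included. In the last step 48 of 77 members were above 1 with these wells and 43 without them. Of the 8362 measured genes that are not members, 9.44% were higher and 13.5% lower at each step. The median member differed by 1.27-fold between its highest and lowest group, and 70 of 77 (90.9%) by less than 1.5-fold. Over the measured genes that are not members the median was 1.59-fold, and 43.3% differed by less than 1.5-fold. Among genes at 50 CPM or more these shares were 91.9% of 74 members and 58.9% of the other genes.

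Of the 5 comparisons, the one inside the BFUE gate gave the summed ratio farthest from 1. The 8 Cd34-high wells and the 15 Cd34-low wells came from the same gate and the same 3 plate columns. The summed level in Cd34-high BFUE was 0.725 times that in Cd34-low BFUE. Of 77 measured members, 22 were at least 1.5-fold lower in Cd34-high wells, beside 25.4% of all 9224 measured genes, and 1 was at least 1.5-fold higher, beside 30.4%. The share that was lower is thus near that of all genes, and what set the members off from the whole table was the other side: few were higher, and their median log2 ratio was -0.44 against 0.03 over all genes. The ratio was 0.743 in the upper plate rows and 0.707 in the lower ones. All 8 Cd34-high wells lay below 13 of the 15 Cd34-low wells. The exceptions were the Cd34-low wells A2 and G2, at 7402 and 7435 CPM, and without them the ratio was 0.703. In A2, G2 and the next lowest well, D1, Klf1 stood at 167, 250 and 206 CPM (Cd34-low median 684). Gata2 stood there at 287, 825 and 1353 CPM (median 92.9) and Gata1 at 419, 216 and 583 CPM (median 419). Wells D3 and G3, with Gata2 at 292 and 332 CPM, held 10253 and 9882 CPM of the members. The part that such differences among Cd34-low wells have in the level was not tested.

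Genes of the cell types the gate could hold differed between these wells as well. Of 10 multipotent and myeloid markers, 7 reached 10 CPM in Cd34-high BFUE and 5 in Cd34-low BFUE, and their summed level ran between 4037 and 9775 CPM in Cd34-high wells, against 31.9 to 416 CPM in Cd34-low wells. Cd34, which made the split, is one of these markers, and without it 6 of 9 reached 10 CPM in Cd34-high BFUE and 5 in Cd34-low BFUE, with sums of 2035 to 8729 CPM in Cd34-high wells, against 30.7 to 414 CPM in Cd34-low wells. Of 10 erythroid markers, 6 reached 10 CPM in Cd34-high BFUE and 9 in Cd34-low BFUE, with sums of 216 to 1151 CPM in Cd34-high wells, against 1150 to 4401 CPM in Cd34-low wells. Gata1 stood at 12.7 CPM and Epor, the erythropoietin receptor, at 2.42 CPM in Cd34-high BFUE, against 411 and 188 CPM in Cd34-low BFUE. Gfi1b (86.9 against 345 CPM) and Tfrc (87.9 against 185 CPM) were lower in Cd34-high BFUE but well above 10 CPM. Nfe2 went the other way (302 against 249 CPM), and Alas2 was near 0 in both (0.0835 and 0.0763 CPM). As a sum, the erythroid markers go with the label BFUE more in the Cd34-low wells than in the Cd34-high ones. The Cd34-low wells were not uniform, however. Of 7 megakaryocyte markers, 4 reached 10 CPM in Cd34-low BFUE and 3 in Cd34-high BFUE. Their sums ran between 0.620 and 1442 CPM in Cd34-low wells (median 75.7), against 5.80 to 735 CPM in Cd34-high wells (median 185). Of the granule genes of myeloid cells in the list, Mpo stood at 2370 CPM, Prtn3 at 184 and Ctsg at 5.26 in Cd34-high BFUE, against 13.6, 18 and 0 CPM in Cd34-low BFUE, and Elane had no read in either. The part that cell type has in the lower level of the members was not tested. Median genes per well were close, at 9226 in Cd34-high wells and 9567 in Cd34-low wells.

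The lower members came from both subunits: 12 of 50 measured in the large one and 10 of 26 in the small one. The 5 with the lowest ratios were Mrpl52, Mrps11, Mrpl35, Mrps7 and Mrps18b. Mrpl52, of the large subunit, ran between 3.84 and 71.5 CPM with a median of 30.5 in Cd34-high wells, against 29.7 to 181 CPM with a median of 105 in Cd34-low wells. All 8 Cd34-high wells lay below the Cd34-low median, and Mrpl52 was 3.50-fold lower (interval 3.14 to 3.91). Mrps11, the relative of bacterial S11 in the platform of the small subunit, ran between 0 and 50.0 CPM with a median of 23.2 in Cd34-high wells, against 0.655 to 121 CPM with a median of 82.0 in Cd34-low wells, and was 2.87-fold lower. Its ratio was 0.566 in the upper plate rows and 0.222 in the lower ones, so the size of the difference was uneven over the plate.

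Mrpl35 was 2.67-fold lower and Mrps7, the relative of bacterial S7 in the head of the small subunit, 2.47-fold lower. In Cd34-high wells Mrpl35 ran between 0 and 105 CPM with a median of 57.4, against 70.5 to 287 CPM with a median of 144 in Cd34-low wells. Mrps18b ran between 1.47 and 118 CPM with a median of 35.7 in Cd34-high wells, against 47.4 to 156 CPM with a median of 91.7 in Cd34-low wells, and was 2.46-fold lower. Mrps18b is thus the gene of its set with the largest difference inside the BFUE gate, where Mrps18a had a ratio of 0.702 and Mrps18c one of 0.745, while Mrps18c differed most from Cd34-low BFUE to CFUE. Mrpl12 ran between 30.1 and 275 CPM with a median of 203 in Cd34-high wells, against 241 to 525 CPM with a median of 396 in Cd34-low wells, and was 2.16-fold lower. For every member at least 1 Cd34-high well overlapped with the Cd34-low range.

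The 1 member at least 1.5-fold higher in Cd34-high BFUE was Mrps31, a small subunit protein found only in mitochondria. It ran between 0 and 156 CPM with a median of 36.5 in Cd34-high wells, against 0.528 to 73.4 CPM with a median of 37.4 in Cd34-low wells. The summed ratio of 1.80 therefore rests on 3 Cd34-high wells above every Cd34-low well, and the medians were alike. Mrps6 came next at 1.42, with 7 of 8 Cd34-high wells above the Cd34-low median, and Mrps15 at 1.34.

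Other genes of protein synthesis in mitochondria showed the same lower level in Cd34-high BFUE in most lists. The 101 genes with symbols of cytosolic ribosomal proteins did not. They summed to 0.963 times their level in Cd34-low BFUE, with a median log2 ratio of -0.06 over 93 measured. The protein genes of mitochondrial DNA did not either, at a summed ratio of 1.03. Ribosomal proteins of mitochondria with other symbols summed to 0.652 (3 of 5 measured at least 1.5-fold lower), among them Ptcd3 at 135 CPM in Cd34-high BFUE and 274 in Cd34-low BFUE. Translation factors of mitochondria summed to 0.689, with 6 of 12 lower and 0 higher. One of them, Taco1, is an activator of translation of a cytochrome oxidase subunit. It had no read in the 8 Cd34-high wells and 345 reads in Cd34-low BFUE, or 13.2 CPM, near the 10 CPM limit. With a floor of 3 counts over the group it was at least 52.5-fold lower, a bound from counts alone. In 8 single cells, a transcript missed in the libraries cannot be told apart from one that was absent. Aminoacyl-tRNA synthetases summed to 0.663 (10 of 21 lower, 1 higher), and assembly factors and rRNA-modifying enzymes to 0.796 (13 of 27 lower, 3 higher). Eral1, which chaperones the small ribosomal RNA, stood at 11.5 CPM in Cd34-high BFUE and 90.7 in Cd34-low BFUE. Genes of transcription and RNA stability in mitochondria summed to 0.773 (8 of 18 lower, 1 higher), and inner membrane translocases with Oxa1l to 0.676 (8 of 18 lower, 0 higher). These counts stand beside the same 25.4% of all genes that were lower and 30.4% that were higher.

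**Figure D4:**
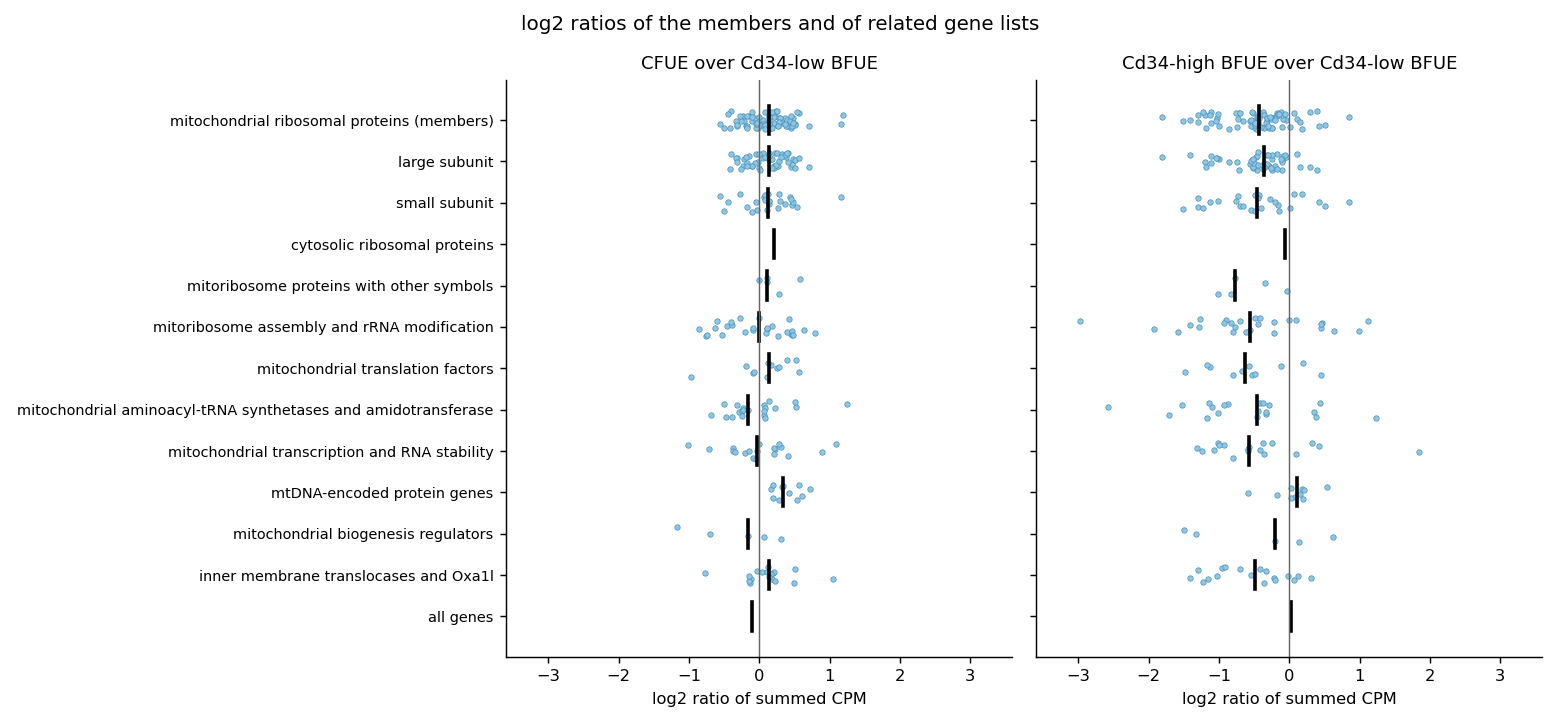
log2 ratio of summed CPM for each measured gene (points) and list median (black bars), CFUE over Cd34-low BFUE (left) and Cd34-high BFUE over Cd34-low BFUE (right); cytosolic ribosomal proteins and all genes are drawn as medians only, and Taco1, with no read in Cd34-high BFUE, has no point. In the right panel the members' median lies at -0.44, and the medians of cytosolic ribosomal proteins (-0.06) and of all genes (0.03) lie near 0. The list labelled inner membrane translocases and Oxa1l also holds genes of outer membrane and matrix import.

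From Cd34-low BFUE to CFUE these lists were mixed. Assembly and rRNA-modifying genes had 2 of 27 higher and 5 lower, with Mpv17l2 at 1.74 and Eral1 1.81-fold lower. Aminoacyl-tRNA synthetases had 1 higher, Sars2 for serine at 2.38, and 1 lower, Mars2 for methionine at 0.619. Of the translation factors, 0 of 12 were higher and 1 was lower, the release factor gene Mtrf1, at 1.96-fold. Among genes of transcription and RNA stability, Slirp, which stabilizes mitochondrial messenger RNA, was at 1.86 and Mterf1a at 2.12, but at 1.41 and 1.48 without wells A10 and D10, so both calls rest on those wells. In the same list Fastkd1 and Tefm, an elongation factor of mitochondrial transcription, were 2.01-fold and 1.64-fold lower. Dnajc19, of the inner membrane import motor, was 2.07-fold higher, and Oxa1l, which inserts new proteins into the inner membrane and holds the ribosome there, 1.71-fold lower. Of the ribosomal proteins with other symbols, Chchd1 had the highest ratio, 1.49, or 1.15 without A10 and D10. Leaving out these wells also took 2 genes off the 5 lower ones of the assembly list (Dhx30 and Mrm1, at 0.708 and 0.678) and put the elongation factor gene Gfm1 past 1.5-fold (1.51, against 1.44 with them), while the other list genes named here as past 1.5-fold stayed past it.

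Of 9 regulators of mitochondrial gene expression 5 were measured in CFUE and Cd34-low BFUE, with 0 higher and 2 lower by 1.5-fold in CFUE. All 9 summed to 0.577 times their level in Cd34-low BFUE, against 1.09 for the members. Myc took most of that sum, at 908 of 1399 CPM in Cd34-low BFUE and 404 of 807 CPM in CFUE. The median ratio of the 5 measured genes was 0.893. In Cd34-high BFUE the 9 genes summed to 0.774 times their level in Cd34-low BFUE, beside 0.725 for the members. Of 5 measured there, 1 was higher and 2 were lower. Myc, a transcription factor that drives genes of ribosomes and mitochondria, stood at 791 CPM in Cd34-high BFUE, 908 in Cd34-low BFUE, 705 in Intermediate_25-35, 614 in Intermediate_50-60 and 404 in CFUE, 2.25-fold lower in CFUE than in Cd34-low BFUE. Pprc1, a coactivator of nuclear genes for mitochondria, was 1.63-fold lower. Nrf1 (0.893) and Gabpa (1.24), which bind promoters of many such genes, differed by less than 1.5-fold.

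Cytosolic ribosomal and mitochondrial DNA genes moved with wells A10 and D10 as well. Cytosolic ribosomal protein genes had a summed ratio of 1.12 for CFUE over Cd34-low BFUE, with 8 of 92 higher and 1 lower. Without these wells the ratio was 1.03, with 2 higher and 0 lower. The symbol rule for the latter values was slightly wider and also takes symbols that begin with Rpsa, so the sets are not the same. The protein genes of mitochondrial DNA had a summed ratio of 1.25, with 2 of 11 measured at least 1.5-fold higher. Without A10 and D10 it was 1.09, with none past 1.5-fold. Median wells tell the same: 10612 CPM of mitochondrial protein genes in CFUE, or 9999 without these wells, against 9491 in Cd34-low BFUE. Reads were primed from poly(A) tails, so these values count mitochondrial transcripts that carry a tail.

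Between wells of 1 group, members varied less than all genes by the median. Among genes at 50 CPM or more, the median coefficient of variation over wells was 0.523 for 67 members against 0.648 for all genes in Cd34-high BFUE, and 0.359 for 72 members against 0.492 in Cd34-low BFUE. In Intermediate_25-35 it was 0.295 against 0.426, in Intermediate_50-60 0.333 against 0.434, and in CFUE 0.450 against 0.549. Over all kept wells Mrpl15 (0.279), Mrpl34 (0.290) and Mrpl12 (0.299) varied least. Mrps31 varied most among measured members but for Mrps18c, at 0.639 between 0 and 156 CPM, and had no read in 2 wells. Across the wells of a group, sums of large and small subunit members had a Pearson's r of 0.58 (Spearman's rho 0.48) in 21 Intermediate_25-35 wells, 0.57 (rho 0.51) in 24 Intermediate_50-60 wells and 0.68 (rho 0.60) in 21 CFUE wells without A10 and D10. In 15 Cd34-low BFUE wells r was 0.66 but rho 0.22, and without the low wells A2 and G2 r was 0.05, so the value of r there rests on those wells. In 8 Cd34-high wells r was -0.04 and rho 0.00. These are descriptions over wells that share a plate and a total. In Intermediate_50-60 the summed level went with the number of reads per well (r = 0.72), and in Intermediate_25-35 it did not (r = 0.00).

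Promoter sequence was looked at for Mrps18c and Mrps36, the 2 members with the highest ratio of highest to lowest level from Cd34-low BFUE to CFUE. RefSeq windows (GRCm38.p6) of 300 bases, with 250 before and 50 after the gene start, were found for 69 of the 78 members. The windows of Mrps18c, Mrps36 and the relatives Mrps18a and Mrps18b are shown 5′ to 3′ on the strand of the gene, to set the related genes with and without the stage order side by side. Capitals mark AGATAA, a sequence bound by GATA factors such as Gata1, on either strand. They lie at chr5:100798509-100798808 (+), chr13:100744610-100744909 (-), chr17:46110754-46111053 (+) and chr17:35916391-35916690 (-).
Mrps18c: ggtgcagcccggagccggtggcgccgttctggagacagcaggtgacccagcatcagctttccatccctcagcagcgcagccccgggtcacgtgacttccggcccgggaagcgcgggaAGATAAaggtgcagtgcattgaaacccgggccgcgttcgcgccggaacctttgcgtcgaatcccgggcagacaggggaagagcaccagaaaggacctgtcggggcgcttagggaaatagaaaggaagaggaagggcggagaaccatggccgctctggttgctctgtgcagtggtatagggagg
Mrps36: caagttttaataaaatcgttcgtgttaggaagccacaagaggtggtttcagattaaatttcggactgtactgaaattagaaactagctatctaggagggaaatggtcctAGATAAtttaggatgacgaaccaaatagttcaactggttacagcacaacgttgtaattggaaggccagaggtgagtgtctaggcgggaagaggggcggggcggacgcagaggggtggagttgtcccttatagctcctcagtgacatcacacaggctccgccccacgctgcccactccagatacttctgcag
Mrps18a: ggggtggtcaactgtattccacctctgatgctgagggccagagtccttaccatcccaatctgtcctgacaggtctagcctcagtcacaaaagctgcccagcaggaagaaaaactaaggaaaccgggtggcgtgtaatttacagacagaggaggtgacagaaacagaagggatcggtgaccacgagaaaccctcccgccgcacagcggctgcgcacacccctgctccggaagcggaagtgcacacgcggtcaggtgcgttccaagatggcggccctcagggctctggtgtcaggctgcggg
Mrps18b: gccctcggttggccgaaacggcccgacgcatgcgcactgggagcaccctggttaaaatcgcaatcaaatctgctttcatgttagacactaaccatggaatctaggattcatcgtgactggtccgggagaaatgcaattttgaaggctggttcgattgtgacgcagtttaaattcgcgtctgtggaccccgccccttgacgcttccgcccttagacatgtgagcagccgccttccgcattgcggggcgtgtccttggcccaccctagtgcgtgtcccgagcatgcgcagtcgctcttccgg

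Mrps18c holds AGATAA 133 bases before its RefSeq start. This match overlaps the start of the gene in the annotation used for the loci here (100798627), so it lies upstream by RefSeq only. Mrps36 holds AGATAA 141 bases before its start. Mrps18a and Mrps18b have no match in these windows, and neither have Mrps27, Mrpl49, Mrps23 and Mrps31, the other members with a window that differed by 1.5-fold or more over those 4 groups. Of the 14 members with a window that were higher at each step, 4 hold a match, Mrps18c and Mrps36 among them. AGATAA or its reverse TTATCT was in the windows of 11 of 69 members (15.9%), of 7.79% of 7420 expressed genes and of 12.7% of 27025 genes with a window. The 11 members with it had a median log2 ratio of 0.25 for CFUE over Cd34-low BFUE, and the 57 measured members without it one of 0.14. Mrps18c and Mrps36, chosen for this look by their ratios, are among the 11, so these medians and the 4 of 14 reuse the values that chose them. Wells A10 and D10 are included in both medians. A match describes letters in this window and says nothing of binding.

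Of 5 other motifs, the share with a match was higher among members than among expressed genes for 3 and lower for 2. CCGGAAG, the core of ETS and GABP sites, or its reverse CTTCCGG, was in 37.7% of members' windows, against 23.7% of expressed genes and 9.93% of all genes. GCGCANGC, part of the NRF1 site, or its reverse GCNTGCGC was in 31.9% of members, against 25.0% of expressed genes and 11.2% of all. AAGATGGC, bound by YY1, or GCCATCTT was in 17.4% of members, against 6.21% of expressed genes and 3.19% of all; the window of Mrps18a holds it. CACGTG, an E-box bound by Myc, was in 7.25% of members, against 12.8% of expressed genes and 8.09% of all. CCNCNCCC, as bound by Klf1 and its relatives, or GGGNGNGG was in 65.2% of members, against 72.1% of expressed genes and 51.9% of all. For Cd34-high over Cd34-low BFUE, the medians of members with and without a motif lay farthest apart for NRF1, at a log2 ratio of -0.30 over 22 members with it and -0.45 over 46 without.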

How the data were processed

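The deposited values are read counts per gene, whole numbers without normalization, made by the authors with STAR 2.4 on GRCm38 and featureCounts, per the submitters' processing notes. Annotation, strand setting and handling of shared reads: not given in the sources used here. Because the header line has an extra empty cell, names and data columns were matched by order. The table has 0 columns without a sample.

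Wells with 50000 reads or more were kept, which left out 5 wells of 10596 to 16644 reads. Counts were summed per group and divided by the summed reads. Where a symbol had several identifiers, the one with most reads was used. Genes counted as measured from 10 CPM in either group, and as higher or lower from 1.5-fold. Ratios have exact conditional binomial intervals, and the script was tested on simulated counts. Cells are not replicates, so no test was made. Doublets were not called, since each well was sorted as 1 cell. Loci and exon lengths come from GENCODE M21 (GRCm38) and promoter windows from RefSeq (GRCm38.p6). The members and all lists were chosen with earlier results of these data known. Named genes were the 8 highest and 8 lowest ratios of CFUE over Cd34-low BFUE and the 3 highest and 3 lowest of each other comparison, each with 1 direction in the upper (A to D) and lower (E to H) plate rows, the 5 highest and lowest per kb, the Mrps18 genes, Mrpl12 and up to 4 genes per list. The other members described for Cd34-high BFUE, Mrps31 in the account of spread, Dhx30, Mrm1 and Gfm1, the granule genes, the list genes named for Cd34-high BFUE, and Nrf1 were chosen after their values were seen.

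Alternatives were the mean of per-well CPM, TMM factors (edgeR 4.0.16), size factors (DESeq2 1.42.0), totals without mitochondrial, globin and ribosomal RNA genes, all wells, each part of the plate, all BFUE wells, other filters on low counts, thinning to 500000 reads, and leaving out Mrpl12. Leaving out CFUE wells A10 and D10 or BFUE wells A2 and G2 was chosen after seeing the data. Software was R 4.3.3 and Python 3.11.15 with scipy 1.17.1, pandas 2.3.3, numpy 2.4.6 and matplotlib 3.10.9.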

Additional observations from a re-analysis of the deposited data

How the results depend on the processing

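For CFUE over Cd34-low BFUE the summed ratio of 1.09 was 1.12 by the mean of per-well CPM, 1.18 with TMM factors or size factors, 1.20 in plate rows A to D, 0.998 in rows E to H (turned round), 1.20 against all BFUE wells, 1.05 without CFUE wells A10 and D10, 1.06 without BFUE wells A2 and G2 and 1.10 without Mrpl12. The 3 higher members were 7 by the mean of per-well CPM, 9 with TMM or size factors, 20 in rows A to D and 10 against all BFUE wells. Wells A10 and D10 lie in rows A to D, so the values of CFUE by part of the plate are not separate from those wells. The 0 lower members were 1 in rows A to D, 3 in rows E to H and 1 with no filter. For Intermediate_25-35 over Cd34-low BFUE the ratio of 1.07 was 1.08 by the mean of per-well CPM, 1.13 with TMM, 1.12 with size factors, 1.17 against all BFUE wells and 1.04 without A2 and G2, and the 0 higher members were 2 in each part of the plate and 6 against all BFUE wells.

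For Intermediate_50-60 over Intermediate_25-35 the ratio of 0.991 was 0.986 by the mean of per-well CPM, 0.996 without Mrpl12, and turned to 1.003 with TMM and 1.001 with size factors. The 0 higher members were 1 in rows A to D, and the 0 lower ones 1 by the mean of per-well CPM, 2 in rows A to D and 1 with no filter. For CFUE over Intermediate_50-60 the ratio of 1.03 was 1.05 by the mean of per-well CPM, with TMM and with size factors, 1.13 in rows A to D and 1.03 without Mrpl12, and turned to 0.937 in rows E to H and 0.983 without A10 and D10. The 1 higher member was 5 in rows A to D, 0 in rows E to H and 0 without A10 and D10, and the 0 lower ones were 3 in rows E to H.

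For Cd34-high over Cd34-low BFUE the ratio of 0.725 was 0.700 with TMM, 0.757 with size factors, 0.743 in rows A to D, 0.707 in rows E to H, 0.703 without A2 and G2 and 0.735 without Mrpl12. The 1 higher member was 3 in each part of the plate and 2 with no filter, and the 22 lower ones ranged from 21 to 33. The cause of these shifts was not tested. Of the 14 single members recomputed, none turned round in direction under any of these settings. Most of them were named by a rule that asked for 1 direction in both parts of the plate, so the plate settings could not turn those. Of all 77 measured members, 51 had the same direction in both parts for CFUE over Cd34-low BFUE. For Cd34-high over Cd34-low BFUE 60 did, and for CFUE over Intermediate_50-60 44 did. No paired analysis was possible because the result comes from no test. With 8 wells, Cd34-high BFUE had the fewest reads (11974810 in all), and without replicates the spread between animals is unknown.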
